A study of Homo sapiens with 6 samples.

Results

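The genes described here are 10 components and outputs of the Hippo pathway, read in SNU449 cells with and without knockdown of MAD2L1. They were taken by gene symbol from a deposited table of 60589 rows, and each of the 10 symbols matched 1 row. CCN1, CCN2, ANKRD1, AMOTL2, AJUBA, NUAK2 and LATS2 are known transcriptional targets of YAP and TEAD proteins, and YAP1, TEAD1 and TEAD4 encode the coactivator and DNA-binding proteins themselves. SNU449 is an established line from a human hepatocellular carcinoma. RNA was collected at day 3 from 3 libraries with control siRNA (siControl) and from 3 with siRNA directed at MAD2L1 (siMAD2L1), a spindle checkpoint gene. The titles of the knockdown libraries all name MAD2L1, whereas the treatment field names siMAD2L1, siMAD2L2 and siMAD2L3 in turn. All libraries come from 1 cell line, and the labels do not say whether replicates were separate cultures or how many siRNA sequences were used, so every p-value refers only to how far these libraries varied, which may be technical.

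In the Hippo pathway the kinases MST1 and MST2, encoded by STK4 and STK3, activate LATS1 and LATS2, which phosphorylate the coactivators YAP and TAZ and hold them in the cytoplasm. Unphosphorylated YAP and TAZ enter the nucleus and bind TEAD proteins, which recognise a short DNA motif and raise transcription of genes such as CCN1, CCN2 and ANKRD1. Several targets, among them LATS2, AMOTL2 and AJUBA, encode proteins that act back on the kinases or on YAP, and in the liver the pathway is known for its control of organ size and tumour growth. Because YAP is controlled chiefly through phosphorylation and location, its mRNA level is not a measure of its activity.

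The values are TPM, a measure scaled for transcript length and for the library total, so that levels can be compared between genes. How many reads stand behind them is not known. MAD2L1 measured 14.5, 13.7 and 13.9 TPM in siControl and 4.47, 0.795 and 2.40 TPM in siMAD2L1 replicates 1, 2 and 3 (log2 fold change -2.22, SE 0.357, limma adjusted p = 0.0105). This call was lost without siControl replicate 1, 2 or 3 (adjusted p = 0.0597, 0.0547 and 0.0572), and replicate 1 of siMAD2L1 alone gave -1.46. MAD2L2, named by the treatment field of replicate 2, measured 154 TPM in that library against 138 to 150 TPM in siControl. The knockdown libraries also differed among themselves, with siMAD2L1 replicate 1 at 40.0 on the second principal component and replicates 2 and 3 at -24.7 and -11.9. Transcripts of the mitochondrial genome made up 15.2% to 15.3% of the TPM in siControl and 9.21% to 10.9% in siMAD2L1. With TPM rescaled without those genes and the 20 highest genes, the log2 fold changes of AJUBA, NUAK2 and AMOTL2, the genes called below, were -1.26, -0.94 and -0.73 (limma adjusted p = 0.00272, 0.00593 and 0.0269).

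TEAD proteins are known to bind the hexamer GGAATG. This hexamer was looked for on both strands in the 250 bases upstream of each start that RefSeq annotates (GRCh38.p14), which were given for 7 of the 10 genes in 9 windows. CCN1, TEAD1 and TEAD4 were not matched. It occurred in 6 of the 9 windows, against 11.9% of all 35116 windows of the same length. Of the 6 genes with the hexamer, 5 are known TEAD targets and the other is YAP1, and the counts are a description. The windows below are printed because they show the same hexamer upstream of genes whose mRNA fell and of genes whose mRNA did not pass the test. They are written 5′ to 3′ on the strand of the gene and end at the base before the start, with the hexamer in capitals. In ANKRD1 a match to TGANTCA is in capitals too. This is a loose pattern searched for AP-1 factors, and it allows any base at its centre. The matched bases are TGATTCA, with T at the centre, and whether AP-1 factors bind them was not tested.
CCN2, chr6:131951373-131951622, minus strand: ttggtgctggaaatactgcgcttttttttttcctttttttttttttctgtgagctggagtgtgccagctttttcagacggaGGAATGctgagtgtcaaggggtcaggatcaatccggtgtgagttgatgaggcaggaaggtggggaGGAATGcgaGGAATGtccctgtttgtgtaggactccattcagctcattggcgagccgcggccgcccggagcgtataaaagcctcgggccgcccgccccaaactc
ANKRD1, chr10:90921088-90921337, minus strand: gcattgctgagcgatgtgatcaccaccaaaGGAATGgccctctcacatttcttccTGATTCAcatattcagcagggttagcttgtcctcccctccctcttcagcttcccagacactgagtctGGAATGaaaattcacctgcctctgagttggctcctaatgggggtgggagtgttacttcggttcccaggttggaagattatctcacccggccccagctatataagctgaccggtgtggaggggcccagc
NUAK2, chr1:205321746-205321995, minus strand: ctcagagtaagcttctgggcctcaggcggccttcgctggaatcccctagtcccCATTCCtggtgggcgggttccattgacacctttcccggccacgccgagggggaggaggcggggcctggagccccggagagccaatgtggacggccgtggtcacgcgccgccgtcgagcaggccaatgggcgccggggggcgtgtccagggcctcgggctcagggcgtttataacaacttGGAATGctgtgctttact
AMOTL2, the downstream one of 2 annotated starts, chr3:134374448-134374697, minus strand: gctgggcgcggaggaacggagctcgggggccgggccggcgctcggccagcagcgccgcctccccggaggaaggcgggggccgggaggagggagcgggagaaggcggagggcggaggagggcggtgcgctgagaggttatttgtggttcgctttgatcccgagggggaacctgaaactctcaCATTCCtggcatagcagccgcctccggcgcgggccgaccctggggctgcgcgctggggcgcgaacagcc
AJUBA, the downstream one of 2 annotated starts, chr14:22976843-22977092, minus strand: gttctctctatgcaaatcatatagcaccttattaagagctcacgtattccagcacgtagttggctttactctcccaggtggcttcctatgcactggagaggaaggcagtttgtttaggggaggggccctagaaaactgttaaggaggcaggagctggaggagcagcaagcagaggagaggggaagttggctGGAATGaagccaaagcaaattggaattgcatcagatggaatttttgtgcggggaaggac

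CCN2 held 3 copies of the hexamer, with their first bases at -169, -104 and -95 from the start. ANKRD1 held 2 copies, at -220 and -128, and a TGANTCA match at -195. NUAK2 also held 2 copies, at -197 on the opposite strand and at -18. AMOTL2 had a single copy at -69 on the opposite strand and AJUBA a single copy at -59. The upstream starts of AMOTL2 and AJUBA and the LATS2 window held no match, and the YAP1 window held 1 copy. TGANTCA occurred in 6.57% of all windows and the CArG box, the motif of serum response factor, in 1.16%, and the latter was in none of the 9 windows.

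Of the 10 genes, AJUBA, NUAK2 and AMOTL2 fell in siMAD2L1, and the other 7 did not pass the test. CCN1, CCN2 and ANKRD1, the most widely used readouts of YAP activity, were at 86.9%, 105% and 85.1% of their siControl means. A gene was called when the limma p-value, adjusted over all 14790 genes with a mean of at least 1 TPM, was under 0.05. All 10 genes passed that filter. Of all genes tested, 6.23% were called lower and 3.55% higher, against 30% and none of the 10 genes. By limma, none of the 10 was higher at an unadjusted p under 0.05 either. All siMAD2L1 libraries lay below all siControl libraries for 21.5% of the tested genes and above for 11.3%, and they lay below for 5 of the 10 genes and above for none. The 5 include TEAD1 and CCN1, whose highest siMAD2L1 libraries, at 7.36 and 53.9 TPM, were close to the lowest siControl libraries, at 7.38 and 54.8 TPM. The 10 genes were chosen with earlier results of these data known, so these shares are a description and not a test. The median log2 fold change of the 10 genes was -0.22, and that of all tested genes was -0.08. Among all calls 63.7% were lower, a share of 44.2% after removal of a trend with transcript length, 50.5% after quantile normalization, 52.5% after scaling to the upper quartile and 73.3% without the mitochondrial and the 20 highest genes, while the 3 genes were called lower under each of these scalings.

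**Figure D1:**
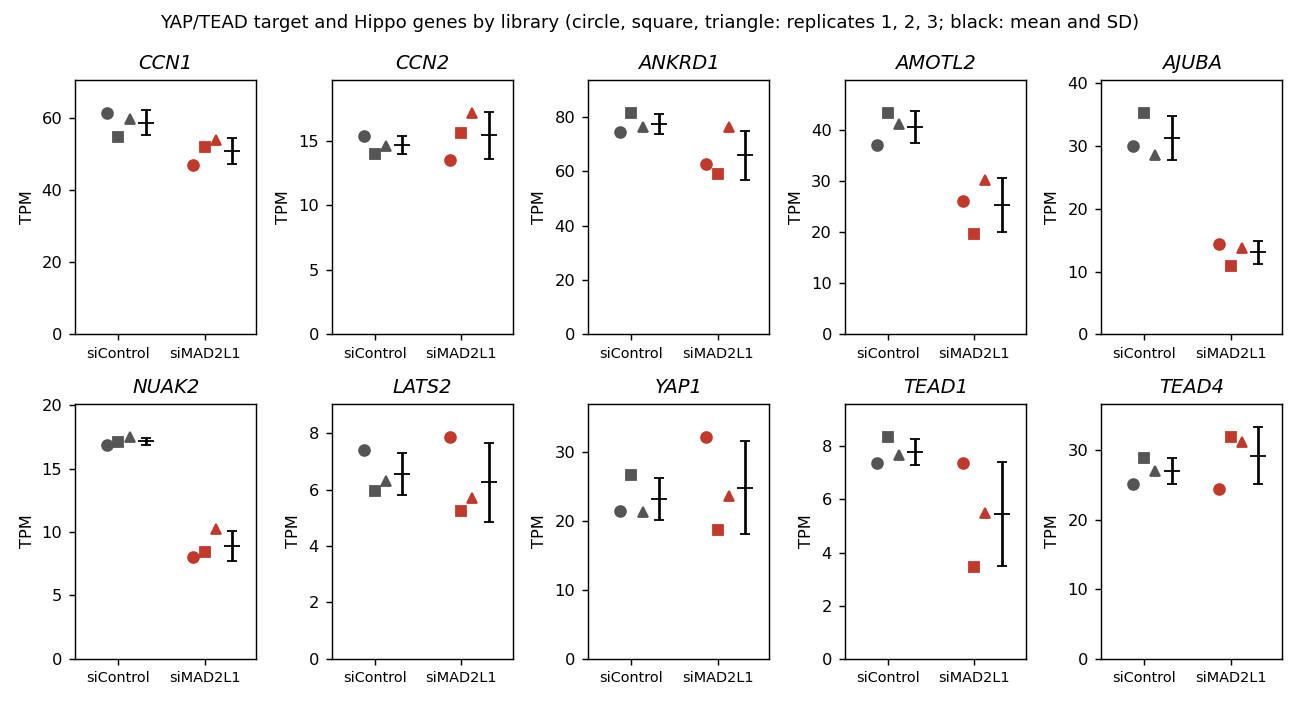
TPM of the 10 genes in each library, with siControl in grey, siMAD2L1 in red, marker shapes for replicates 1 to 3, and the mean and SD in black; each vertical axis starts at 0. AJUBA, NUAK2 and AMOTL2 lie lower in all 3 siMAD2L1 libraries, while CCN2, ANKRD1, LATS2, YAP1 and TEAD4 overlap between the groups.

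Within siControl the genes spanned a wide range of levels. ANKRD1 was the highest, at 74.4 to 81.4 TPM, followed by CCN1 at 54.8 to 61.4 TPM and AMOTL2 at 37.2 to 43.3 TPM, with no overlap between neighbours. AJUBA, TEAD4 and YAP1 followed at 31.3, 27.0 and 23.2 TPM on average, where AJUBA overlapped TEAD4 and TEAD4 overlapped YAP1. NUAK2 and CCN2 came next at 17.2 and 14.6 TPM without overlap. TEAD1 and LATS2 were the lowest, at 7.79 and 6.56 TPM, and overlapped. In siMAD2L1 the order changed in the middle, with TEAD4 at 29.1, AMOTL2 at 25.3 and YAP1 at 24.8 TPM. TEAD4 overlapped AMOTL2 and AMOTL2 overlapped YAP1, while YAP1 lay above CCN2 without overlap. CCN2 at 15.4 TPM overlapped AJUBA, which followed at 13.05 TPM. TEAD1 was then the lowest at 5.43 TPM, overlapping LATS2 at 6.26 TPM. ANKRD1 and CCN1 stayed the highest at 65.8 and 50.9 TPM.

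CCN1, formerly CYR61, encodes a secreted matricellular protein that binds integrins (chromosome 1, 85580761 to 85583962, plus strand, GRCh38). CCN1 measured 61.4, 54.8 and 59.8 TPM in siControl and 46.9, 52.0 and 53.9 TPM in siMAD2L1. The groups did not overlap, though the lowest siControl library and the highest siMAD2L1 library were less than 1 TPM apart. On the log2 scale the difference was -0.20 (SE 0.0919, 95% interval -0.41 to 0.01, adjusted p = 0.213), and it passed in none of the 20 alternatives.

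CCN2, formerly CTGF, encodes connective tissue growth factor, a related secreted protein that promotes matrix deposition (chromosome 6, 131948176 to 131951373, minus strand). CCN2 measured 15.3, 14.0 and 14.6 TPM in siControl and 13.5, 15.6 and 17.1 TPM in siMAD2L1. The siControl values lay within the range of the siMAD2L1 values. Its log2 fold change, 0.07, had a 95% interval of -0.22 to 0.35 (adjusted p = 0.782). An antisense gene that overlaps CCN2 had a mean of 0.475 TPM over the 6 libraries.

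ANKRD1 encodes an ankyrin repeat protein of the nucleus and the sarcomere that is used as a reporter of YAP activity (chromosome 10, 90912096 to 90921276, minus strand). It measured 74.4, 81.4 and 76.3 TPM in siControl and 62.5, 58.8 and 76.1 TPM in siMAD2L1. Replicates 1 and 2 lay below every siControl library and replicate 3 lay within their range. This gave a log2 fold change of -0.24 with a 95% interval of -0.49 to 0.01 (adjusted p = 0.214). Its lowest adjusted p over the 20 alternatives was 0.0976, without siMAD2L1 replicate 3.

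AJUBA encodes a LIM domain protein that binds LATS kinases and restrains their action on YAP, and that also takes part in mitotic entry through Aurora A (chromosome 14, 22971174 to 22982642, minus strand). It measured 29.9, 35.2 and 28.6 TPM in siControl and 14.5, 10.9 and 13.7 TPM in siMAD2L1. All knockdown libraries lay at or below about 14.5 TPM and all controls above 28. The mean fell from 31.3 ± 3.52 to 13.05 ± 1.86 TPM (SD, n = 3 each), to 41.8% of siControl. At -1.20 (SE 0.139) its log2 fold change was the largest of the 10 genes, with a limma adjusted p of 0.00337. AJUBA was called in all 20 alternatives, with log2 fold changes of -1.28 to -1.06 and adjusted p of up to 0.0325.

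NUAK2 encodes a kinase of the AMPK-related family that is known to be induced by YAP and to act back on LATS (chromosome 1, 205302059 to 205321791, minus strand). It measured 16.9, 17.1 and 17.5 TPM in siControl and 7.99, 8.47 and 10.3 TPM in siMAD2L1. The controls were the tightest of any of the 10 genes relative to their level, and the knockdown libraries all lay well below them. The mean fell from 17.2 ± 0.294 to 8.90 ± 1.19 TPM (SD, n = 3 each), to 51.9% of siControl. Its log2 fold change of -0.88 had an SE of 0.128 and a limma adjusted p of 0.00712. NUAK2 was also called in all 20 alternatives, with adjusted p of up to 0.0494, reached without siControl replicate 1.

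AMOTL2 encodes a member of the angiomotin family, which binds YAP, holds it outside the nucleus and activates LATS kinases (chromosome 3, 134355874 to 134375479, minus strand). It measured 37.2, 43.3 and 41.2 TPM in siControl and 26.0, 19.7 and 30.2 TPM in siMAD2L1. The groups did not overlap, and replicate 2 was the lowest. The mean fell from 40.6 ± 3.13 to 25.3 ± 5.28 TPM (SD, n = 3 each), to 62.4% of siControl. This is a log2 fold change of -0.68, with an SE of 0.155 and a limma adjusted p of 0.0346. The call was lost without siControl replicate 1, 2 or 3 (adjusted p = 0.0934, 0.124 and 0.124) and without siMAD2L1 replicate 2 (0.0588), at log2 fold changes of -0.74, -0.63, -0.66 and -0.51.

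LATS2, the kinase that phosphorylates YAP and is also induced by it, did not pass (chromosome 13, 20973032 to 21061547, minus strand). It measured 7.41, 5.97 and 6.29 TPM in siControl and 7.86, 5.24 and 5.69 TPM in siMAD2L1. Replicate 1 was the highest of all 6 libraries and replicate 2 the lowest. For LATS2 the log2 fold change was -0.07 with a 95% interval of -0.49 to 0.35 (adjusted p = 0.846), which turned positive in 4 of the 20 alternatives and was called in none.

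YAP1 encodes the coactivator (chromosome 11, 102110461 to 102233423, plus strand). It measured 21.5, 26.7 and 21.3 TPM in siControl and 32.1, 18.7 and 23.6 TPM in siMAD2L1. Replicate 1 lay above and replicate 2 below all siControl libraries. For YAP1 it was 0.07 on the log2 scale with a 95% interval of -0.37 to 0.51 (adjusted p = 0.856), and -0.13 without siMAD2L1 replicate 1.

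TEAD1 and TEAD4 encode DNA-binding partners of YAP and TAZ. TEAD1 (chromosome 11, 12674591 to 12944483, plus strand) measured 7.38, 8.34 and 7.67 TPM in siControl and 7.36, 3.45 and 5.49 TPM in siMAD2L1. Replicate 1 was level with the lowest siControl library, and replicates 2 and 3 lay below it. With all libraries TEAD1 had a log2 fold change of -0.50 (SE 0.231, adjusted p = 0.218). It was -0.71 and called without siMAD2L1 replicate 1 (adjusted p = 0.0476) and -0.25 without replicate 2 (adjusted p = 0.425). TEAD4 (chromosome 12, 2959330 to 3040673, plus strand) measured 25.1, 28.9 and 26.9 TPM in siControl and 24.4, 31.8 and 31.2 TPM in siMAD2L1. Here replicate 1 was the lowest library and replicates 2 and 3 the highest. For TEAD4 the difference on the log2 scale was 0.10 with a 95% interval of -0.19 to 0.39 (adjusted p = 0.662).

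**Figure D2:**
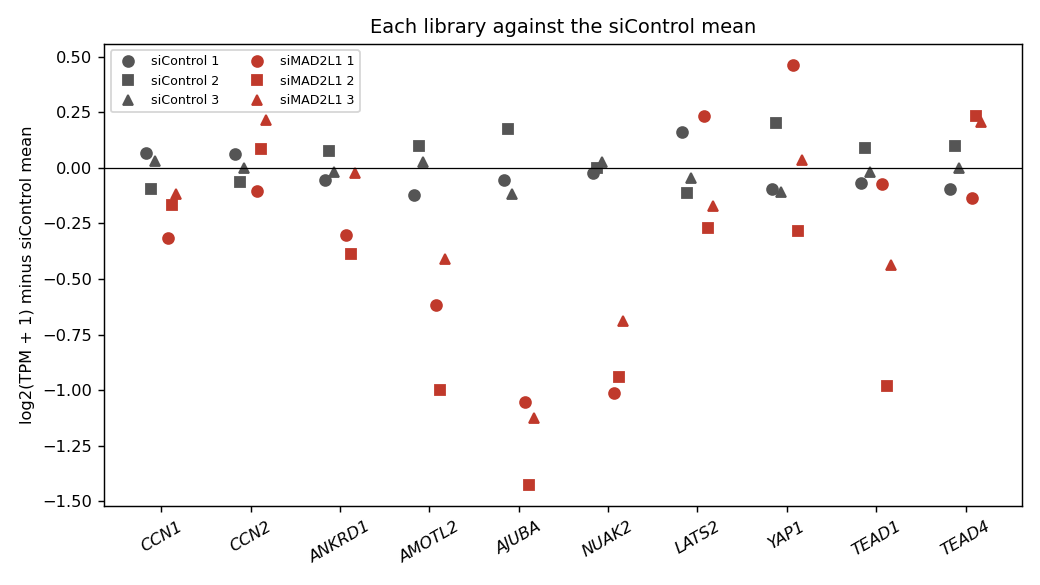
Difference of log2(TPM + 1) from the siControl mean (vertical axis) for each of the 10 genes (horizontal axis) and each of the 6 libraries, by group colour and replicate shape. AJUBA lies at -1.06, -1.43 and -1.12 in the 3 siMAD2L1 libraries, whereas YAP1 spreads from -0.29 to 0.46 and TEAD1 from -0.98 to -0.07.

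The knockdown libraries did not rank alike across the genes. Replicate 2, which had the least MAD2L1, was the lowest siMAD2L1 library for ANKRD1, AMOTL2, AJUBA, LATS2, YAP1 and TEAD1. Replicate 1, which kept the most MAD2L1, was the lowest for CCN1, CCN2, NUAK2 and TEAD4. The median log2 difference of all tested genes from the siControl mean was 0.02, -0.15 and -0.12 in siMAD2L1 replicates 1, 2 and 3. AMOTL2, AJUBA, LATS2, YAP1 and TEAD1 have spliced lengths of 5578 to 10279 bases. CCN1, CCN2, NUAK2 and TEAD4 have 2272 to 3441 bases, and ANKRD1 has 1979. Whether these ranks follow MAD2L1, a shift of the whole library or transcript length was not tested. With replicate 1 alone set against the controls, in a fit that assumes it varies as the controls do, the log2 fold changes of AJUBA, NUAK2 and AMOTL2 were -1.06, -1.01 and -0.62 (adjusted p = 0.0325, 0.0261 and 0.0499). With replicate 1 left out they were -1.28, -0.82 and -0.71 (adjusted p = 0.00354, 0.00790 and 0.0381).

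Ratios of related genes within a library do not depend on a scaling by a single factor per library, and 6 such ratios were compared. They can still move with corrections by level or transcript length. The CCN1 to CCN2 ratio was 4.004 ± 0.0867 in siControl and 3.32 ± 0.162 in siMAD2L1 (SD, n = 3 each, exact permutation p = 0.1). The ratio of AMOTL2 to its relative AMOTL1 was 1.39 ± 0.172 and 0.904 ± 0.189, and that of AJUBA to LIMD1, a LIM protein with the same role, was 2.39 ± 0.187 and 1.56 ± 0.469 (SD, n = 3 each, exact permutation p = 0.1 for both). These 3 ratios did not overlap between the groups, and 0.1 is the smallest p that 3 libraries against 3 allow (0.2 after adjustment over the 6 ratios). The TEAD4 to TEAD1 ratio was 3.41 to 3.51 in siControl and 3.32, 9.23 and 5.68 in siMAD2L1 replicates 1, 2 and 3 (exact permutation p = 0.4). The ratios of YAP1 to WWTR1 and of LATS2 to LATS1 overlapped as well (exact permutation p = 0.3 and 0.4).

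Among the wider YAP, TAZ, TEAD and VGLL factors, no gene passed, with 7 of 10 tested and a median log2 fold change of 0.04. Over all tested genes 6.23% were called lower and 3.55% higher, with a median of -0.08. No call among 7 genes is near those shares. By limma 1 of the 7, VGLL4, had an unadjusted p under 0.05. Without siMAD2L1 replicate 1, TEAD1 alone passed after adjustment. WWTR1, which encodes TAZ, was the most abundant, at a mean of 37.1 (SD 3.50) in the controls and 45.0 (SD 7.24) TPM after knockdown (n = 3 libraries each), a log2 fold change of 0.26 that did not pass (limma adjusted p = 0.253). Its level per length exceeded that of YAP1 in each library. TEAD2 followed with 33.7 and 34.7 TPM (log2 fold change 0.04, adjusted p = 0.860). All 4 TEAD genes passed the filter, while VGLL1, VGLL2 and VGLL3, cofactors that also bind TEAD proteins, were at or near 0.

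Of 38 Hippo kinases and upstream regulators 35 were tested, and 2 rose and 2 fell, with a median of 0.08. These shares are near those over all tested genes, 3.55% higher and 6.23% lower. The 2 that fell were AMOTL2 and AJUBA, and none of the other 32 genes tested was called lower. All siMAD2L1 libraries lay below all controls for 3 genes of the list and above for 5. The shares over all tested genes were 21.5% below and 11.3% above. The 3 were AMOTL2, AJUBA and NF2, which encodes merlin, an upstream activator of the kinases. NF2 did not pass (log2 fold change -0.34, limma adjusted p = 0.0997). Without siMAD2L1 replicate 1 the list held 2 genes called higher and 4 called lower, and with library weights 5 and 5. FRMD6, a FERM domain protein upstream of the kinases, rose from 11.1, 13.1 and 9.76 TPM in siControl to 46.4, 20.03 and 25.7 TPM in siMAD2L1. The groups did not overlap, and replicate 1 was far above the other two (log2 fold change 1.28, SE 0.277, limma adjusted p = 0.0282). MAP4K4, a kinase that can activate LATS in parallel to MST1 and MST2, rose from 72.5 ± 3.99 to 96.3 ± 8.53 TPM (SD, n = 3 each), a log2 fold change of 0.40 (limma adjusted p = 0.0341). Both lost their calls without siControl replicate 1, 2 or 3 and without siMAD2L1 replicate 3, with adjusted p of up to 0.116 for FRMD6 and 0.128 for MAP4K4. The 4 calls in the list dropped to 1, AJUBA, without siControl replicate 1, 2 or 3, and to AJUBA and AMOTL2 without siMAD2L1 replicate 3. The core components STK3, STK4, SAV1, LATS1, MOB1A, MOB1B and NF2 did not pass.

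A list of 22 genes was used as a YAP/TAZ target signature, and 21 of them were tested. It holds 7 of the 10 genes, AJUBA among them. Beside 3.55% higher and 6.23% lower over all tested genes, 2 genes of the whole signature were called higher and 5 lower. These counts were 4 and 4 with upper-quartile scaling or a transcript-length trend removed, and 3 and 4 with quantile normalization. Among the 14 that are not of the 10, 2 rose and 2 fell, with a median of -0.16. The 2 that rose were F3, tissue factor, from 51.9, 57.9 and 43.6 TPM to 189, 136 and 122 TPM, and IGFBP3, a secreted binding protein of insulin-like growth factors, from 1048 ± 50.3 to 2059 ± 289 TPM (SD, n = 3 each). The log2 fold changes were 1.51 for F3 (SE 0.173, limma adjusted p = 0.00324) and 0.97 for IGFBP3 (SE 0.103, limma adjusted p = 0.00248). Both were called in all 20 alternatives. The 2 that fell were the receptor tyrosine kinase AXL, from 83.4 ± 5.61 to 54.3 ± 4.40 TPM (log2 fold change -0.61, adjusted p = 0.00878), and FJX1, a secreted protein related to Drosophila four-jointed, from 43.3 ± 2.73 to 28.2 ± 5.73 TPM (SD, n = 3 each), a log2 fold change of -0.62 (limma adjusted p = 0.0370). FJX1 lost its call without siControl replicate 1, 2 or 3 and without siMAD2L1 replicate 2 (adjusted p up to 0.138), and also with the upper-quartile, quantile and transcript-length corrections (0.0692, 0.0667 and 0.0704). AXL lost its call without siControl replicate 1 (0.0572), and without that library the whole signature held 4 calls in place of 7.

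**Figure D3:**
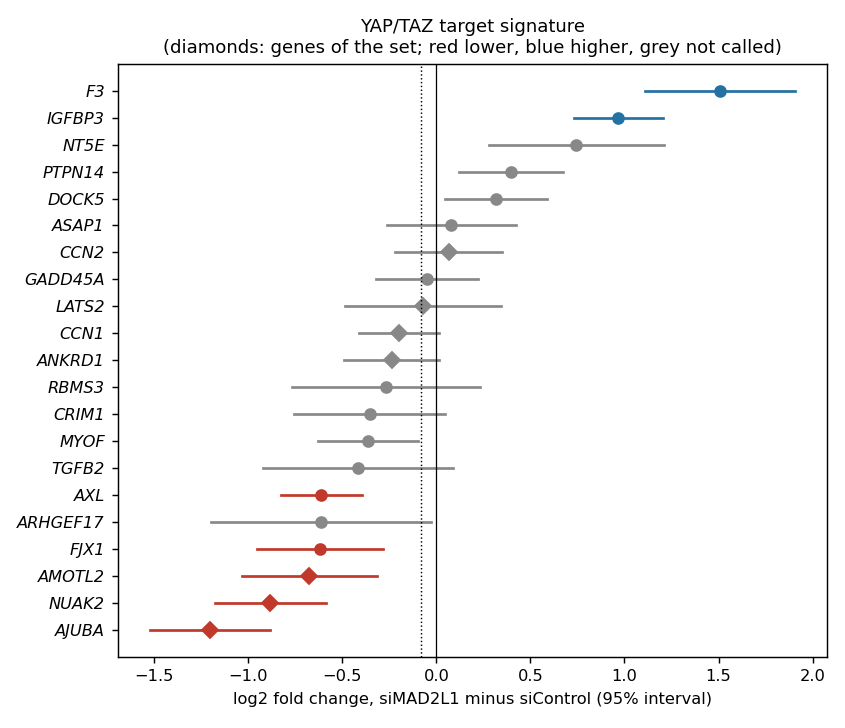
Log2 fold change with its 95% interval (horizontal axis) for the 21 tested genes of the YAP/TAZ target signature; diamonds are genes of the set of 10, red and blue mark genes called lower and higher, and the dotted line is the median of all tested genes at -0.08. The signature runs from AJUBA at -1.20 to F3 at 1.51, with 5 genes called lower and 2 called higher; the split is 4 and 4 with upper-quartile scaling or the length trend removed, and 4 and 3 with quantile normalization.

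Of 15 paralogues of the 10 genes 12 were tested and, beside 6.23% lower and 3.55% higher over all tested genes, 1 fell. This was ANKRD2, a relative of ANKRD1, from 2.71, 2.77 and 3.63 TPM in siControl to 0.402, 0.697 and 0.895 TPM in siMAD2L1 (log2 fold change -1.28, SE 0.225, limma adjusted p = 0.0142). At these low levels the value depends on the pseudocount, with -1.61 at 0.5 and -2.08 at 0.1. The call was lost without siControl replicate 1, 2 or 3 (adjusted p = 0.0609, 0.0519 and 0.0672), and without siMAD2L1 replicate 1 the list held 2 calls. Of the CCN family, CCN5 was the only other gene tested, at 24.6 ± 6.91 and 30.7 ± 0.782 TPM (SD, n = 3 each; adjusted p = 0.279). CCN3, CCN4 and CCN6 lay at or near 0.

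Serum response factor and its MRTF cofactors respond to actin tension and share targets with YAP. Of 18 of their targets 17 were tested, with 2 higher, 1 lower and a median of 0.06. The shares over all tested genes were 3.55% higher and 6.23% lower, with a median of -0.08. ITGA5, the fibronectin receptor subunit, rose from 112 ± 18.3 to 239 ± 11.9 TPM (log2 fold change 1.10, adjusted p = 0.00256), and ZYX, the focal adhesion protein zyxin, from 183 ± 15.7 to 284 ± 27.1 TPM (SD, n = 3 each; 0.63, adjusted p = 0.00894). FHL2, a LIM domain cofactor, fell from 48.2 ± 0.538 to 32.8 ± 0.550 TPM (SD, n = 3 each; -0.54, adjusted p = 0.00767). Without siControl replicate 1 the adjusted p was 0.0583 for ZYX and 0.0579 for FHL2, and without siControl replicate 3 it was 0.0516 for ZYX. The list held 1 call without siControl replicate 1 and 5 without siMAD2L1 replicate 1.

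**Figure D4:**
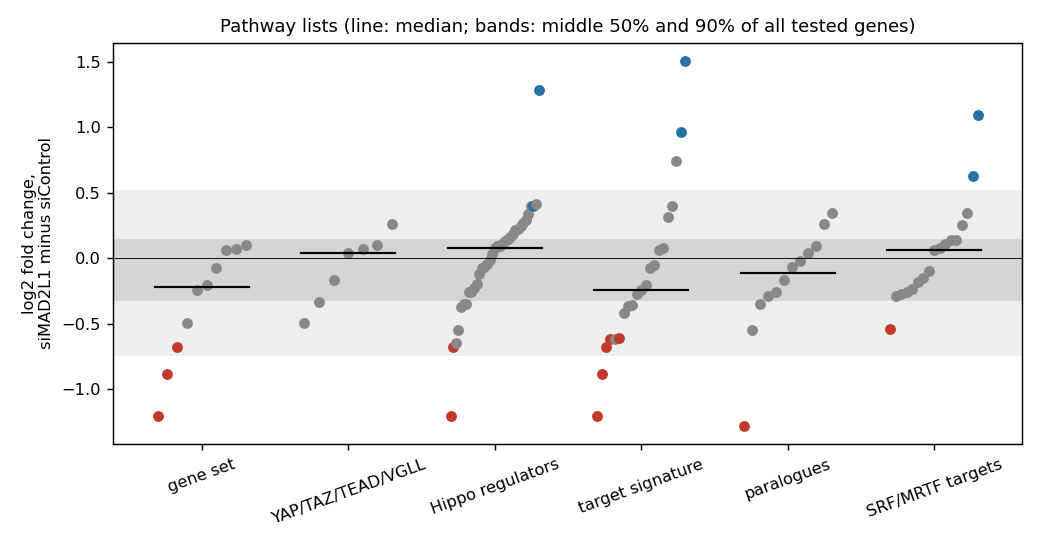
Log2 fold change (vertical axis) of every tested gene in each list, sorted within the list, with red for called lower, blue for called higher and black lines for list medians; the bands hold the middle 50% and 90% of all tested genes. Called genes lie on both sides of 0 in the Hippo, target signature and SRF/MRTF lists, and on the lower side in the set of 10 and among the paralogues.

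By Pearson correlation of log2(TPM + 1) over the 6 libraries, the genes most like CCN1 were MTFP1, OIP5 and C11orf98 (r = 0.992, 0.990 and 0.990). Those most like CCN2 were MAP3K6, VEGFB and PSMB10 (r = 0.995, 0.983 and 0.974). Those most like ANKRD1 were SH3RF2, MNX1 and GRK5 (r = 0.992, 0.983 and 0.982). None of these 9 genes was called, but they were picked for profiles like those of CCN1, CCN2 and ANKRD1, which were not called either. The libraries share the same 2 groups and were scaled together, and the most alike genes were picked from all tested genes, so these values are a description.

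Markers of cell types were read beside these results. Of 6 hepatocyte markers, APOB and TTR were at 0 and ALB and APOA1 under 1 TPM in every group mean. AFP had means of 1.46 TPM in siControl and 1.56 TPM in siMAD2L1, and SERPINA1 of 1.88 and 1.72 TPM, and neither was called. In this liver tumour line the list summed to 3.20 to 4.62 TPM in siControl and 2.00 to 5.66 TPM in siMAD2L1. The mesenchymal markers VIM, CDH2, FN1 and SPARC summed to 9368 to 10222 TPM in siControl and 10804 to 11411 TPM in siMAD2L1, nearly all of it VIM, and none of the 4 was called. Over all tested genes 6.23% were called lower and 3.55% higher. Of 5 epithelial markers 4 were tested, and KRT8 and KRT18 fell (log2 fold change -0.44 and -0.55, limma adjusted p = 0.0101 and 0.0066). CDH1 and KRT19 were not called. The list summed to 411 to 426 TPM in siControl and 279 to 309 TPM in siMAD2L1. Of 5 fibroblast markers 2 were tested, and COL1A2 fell (log2 fold change -0.74, limma adjusted p = 0.00187) while COL1A1 was not called. The list summed to 487 to 565 and 319 to 350 TPM, with LUM at 0. Of 4 leukocyte markers CD68 rose, the list summing to 63.7 to 71.4 and 126 to 145 TPM, with CD3E at 0 and PTPRC near 0. The 4 endothelial markers summed to at most 1.08 TPM. The part of these shifts in the values of the 10 genes was not tested. In RNA from whole cultures, fewer cells that express a gene and less RNA per cell cannot be told apart.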

How the data were processed

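RNA from 6 libraries of SNU449 cells was sequenced after a NEBNext Ultra preparation of Trizol-extracted RNA, per the labels' protocols. Per the submitters' processing notes, fastp, HISAT2 and DESeq2 1.16.1 were used with hg38. Which counter, annotation, strand setting and step to TPM were used is not given in the sources used here. The authors deposited TPM for 60589 rows, and each column sums to the same total, so depth cannot be read and counting intervals are left out. Of the 10 genes, AMOTL2, NUAK2, YAP1, TEAD1 and TEAD4 are rows joined to an identifier from transcript assembly, and the effect of this on their values was not tested.

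Columns were matched to libraries by name and number. Values became log2(TPM + 1). Genes with a mean of at least 1 TPM (14790) were fitted with limma 3.58.1 (trend, no covariates) in R 4.3.3, with Benjamini-Hochberg adjustment over all of them. Fold changes on this scale understate changes of genes with low TPM. Single values were compared with exact two-sided permutation tests. The fit was checked on simulated data. Positions are from GENCODE 29 (GRCh38) and upstream windows from RefSeq (GRCh38.p14), read with Python 3.11.15. In the list of regulators PALS1 was matched through its older symbol.

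The 10 genes and the lists were chosen with earlier results of these data known. Named genes are the 10, MAD2L1 and MAD2L2, up to 4 called genes with the largest change in each list (or the 2 highest where none was called), and the 3 genes most correlated with CCN1, CCN2 and ANKRD1. Cell type markers are from a separate list. AXL, FJX1, VGLL1 to VGLL4, CCN3, CCN4, CCN6, the core Hippo components and the ratio partners stand outside that rule and were added after values were seen. The alternatives were other pseudocounts, filters, scalings and variance models, a replicate block, a stricter threshold, replicate 1 of siMAD2L1 alone and each library left out.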

Additional observations from a re-analysis of the deposited data

How the results depend on the processing

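Of the 10 genes, 3 were called as reported and 2 to 4 over the 20 alternatives. AJUBA and NUAK2 kept their calls in all 20. AMOTL2 lost its call in 8 of them, including no filter (adjusted p = 0.0990), limma without a trend (0.0680) and an adjusted p of 0.01, besides the fits with a library left out. TEAD1 was called with library weights (0.0397) and without siMAD2L1 replicate 1. The signs of CCN2, LATS2, YAP1 and TEAD4, none of them called, changed in 2, 4, 1 and 1 alternatives. The median change of the 10 genes was -0.22, and -0.12 with a transcript-length trend removed. Calls over all genes, 1446 as reported, numbered 727 without a filter, 952 without a trend, 4860 with library weights, 359 at an adjusted p of 0.01 and, over the fits that left out 1 library each, 326 (siControl replicate 1) to 2422 (siMAD2L1 replicate 1). In the pathway lists, leaving aside the 10 genes, calls numbered 10 as reported, 27 with library weights, 6 at an adjusted p of 0.01 and 3 to 17 when the same libraries were left out. By list, the Hippo regulators (4 calls) had 1 call without a filter, without a trend and at an adjusted p of 0.01, 2 with the replicate block, 10 with library weights and 1 to 6 with a library left out. The target signature (7) had 12 with library weights and 4 to 10 with a library left out; the SRF and MRTF targets (3) had 8 and 1 to 5. The paralogues (1) had 0 with a filter at 5 TPM and at an adjusted p of 0.01, 3 with library weights and 0 to 2 with a library left out, and the YAP, TAZ, TEAD and VGLL genes (0) had 3 and 0 to 1. The log2 fold change of MAD2L1 was -2.22 and no longer a call at an adjusted p of 0.01, and it ranged from -2.61 to -1.80 with a library left out, losing its call without siControl replicate 1, 2 or 3 (adjusted p up to 0.0597). The causes were not tested.

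Whether the replicate numbers pair the samples is not known. Deviations of same-numbered libraries from their group means correlated at 0.00898 to 0.0631 over genes. For libraries with different numbers the correlations were -0.0525 to 0.0336. With so few libraries in each group these values cannot decide it. With the replicate block there were 868 calls over all genes, and AMOTL2 (adjusted p = 0.0596) was not among them while AJUBA and NUAK2 were. Depth is unknown, so no limit from counting can be given.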
